A study of Mus musculus with 6 samples.

Results

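Areg, Penk, Csf1, Osm, Lif and Il10 encode secreted mediators that CD4 T cells can pass to epithelium, stroma, macrophages and nerves. These 6 genes, picked by symbol from the 55335 genes of the count table, were followed through 6 bulk RNA-seq libraries of CD4 T cells of the colon lamina propria of mice. The donors were TcfGFP mice, in which GFP reports the locus of Tcf7, and naive CD4+ T cells from their spleens were given to Rag1 KO mice, which have no T or B cells of their own; colitis followed in the hosts. GFP+ cells, which the labels call stem-like, and GFP- cells, which they call effector, were sorted from the same kind of host and gave 3 libraries each. Every group therefore shares the transfer, the Rag1 KO host and the colitis, and no host without colitis was measured. Ages were not given, and nothing in the labels ties the replicates to separate mice. The spread between libraries may therefore be partly technical.

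The products of the 6 genes act through several receptor systems. Amphiregulin, the product of Areg, is made as a membrane-bound precursor, is shed by the protease ADAM17 and binds the EGF receptor, through which it promotes epithelial repair; regulatory T cells and type 2 lymphocytes are known sources. Proenkephalin, the product of Penk, is cut by prohormone convertases into enkephalins, short peptides that bind opioid receptors on sensory nerves and dampen pain in inflamed gut. Csf1 encodes the growth factor through which macrophages survive, acting on the receptor CSF1R. Oncostatin M and LIF, the products of Osm and Lif, are cytokines of the IL-6 family whose receptors share the chain gp130 (Il6st) and signal through STAT3; oncostatin M acts on stromal cells of the inflamed colon. IL-10 also signals through STAT3, by way of IL10RA and IL10RB, and restrains macrophages and colitis.

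Total counts lay between 4309500 and 7462076 per library, and a gene with 3 counts came to 0.430 to 0.690 CPM (counts per 1000000 counts). The 5 markers of CD4 T cells, Cd3d, Cd3e, Cd3g, Cd4 and Trac, were read in every library and summed to 0.306% to 0.438% of counts. The lowest sum, 0.306%, was that of GFP-positive replicate 3, against at least 0.377% in the other 5 libraries. Tcf7 itself stood at 71.3 to 140.5 CPM in GFP-negative and at 140.8 to 237 CPM in GFP-positive libraries. In the deposited TPM values, scaled by gene length and library, its gates overlapped, at 67.5 to 139 against 120 to 236 TPM. GFP-positive replicate 3 stood apart. In it 10 of 10 myeloid markers were read, against 8 or 9 in each other library. They held 0.708% of counts there, against 0.0270% to 0.0403% in the other 5 libraries. The 5 dendritic cell markers held 0.439% there against at most 0.0305%. The 6 stromal markers held 0.0332% there and at most 0.00100% elsewhere. The 6 epithelial markers held 0.0243% there and at most 0.00492% elsewhere, though Krt18 was not highest there. The 5 markers of natural killer and innate lymphoid cells held 0.0759% there and at most 0.0126% elsewhere. Of these, Tyrobp stood at 487 CPM and Fcer1g at 302 CPM in that library, while Ncr1 and Eomes were not highest there.

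Penk, Areg and Csf1 were each more than 2-fold higher, on average, in the GFP-negative effector gate, and the 2 gates did not overlap for any of the 3 genes. Il10 was low in all libraries and lower in the GFP-positive gate. Osm and Lif were not separated by the gates, and the higher mean of Osm in the GFP-positive gate came from replicate 3 alone. The 6 genes were brought together with earlier results of this same comparison known, so their levels and fold changes are a description and no test of the genes is made from them.

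**Figure D1:**
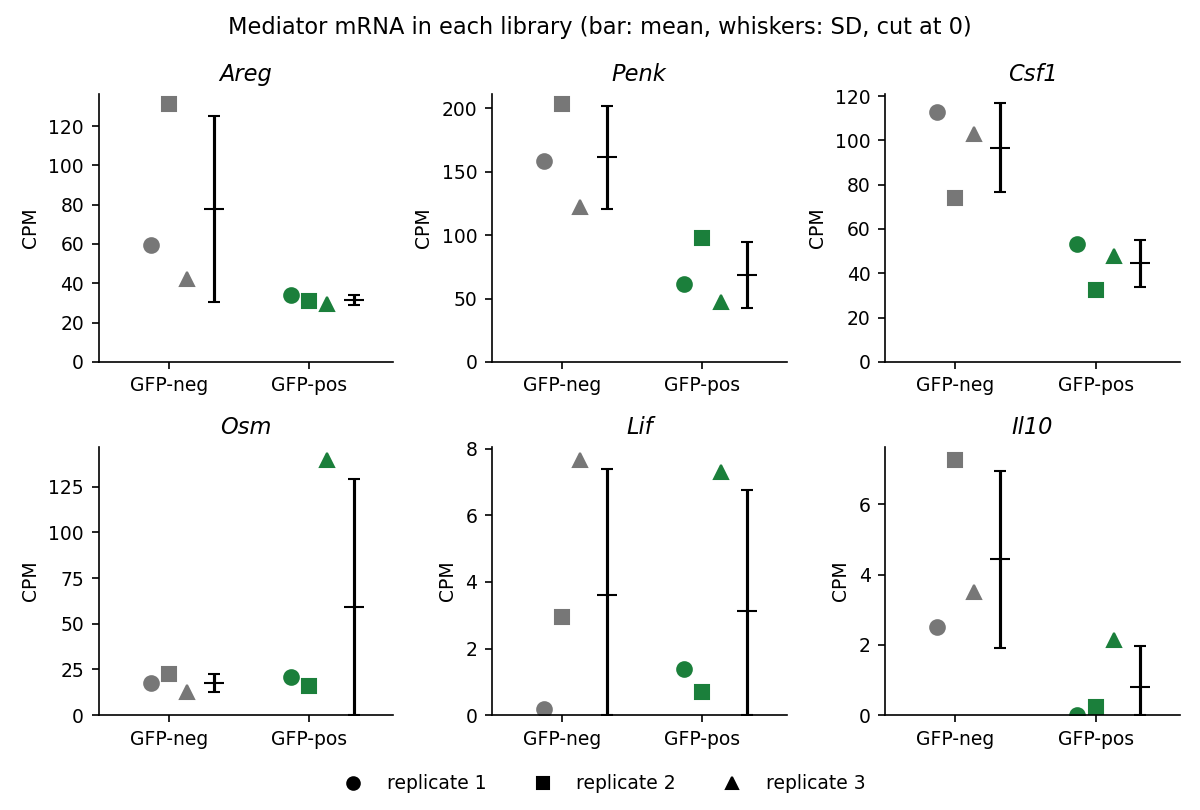
Each panel plots 1 gene in CPM (linear axis from 0) for the 3 GFP-negative and 3 GFP-positive libraries, with the mean and SD of each gate beside them. Areg, Penk, Csf1 and Il10 have all GFP-negative points above all GFP-positive ones, and in Osm the single point at 139.8 CPM is GFP-positive replicate 3.

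Areg (ENSMUSG00000029378.5) lies on chromosome 5 at 91139599 to 91148432 of GRCm38 (mm10), plus strand. In replicates 1 to 3 it reached 59.3, 131 and 42.3 CPM in the GFP-negative gate and 34.3, 30.8 and 29.3 CPM in the GFP-positive gate. The GFP-positive libraries were close together and all lay under the lowest GFP-negative one, while GFP-negative replicate 2 was far above its 2 companions. The means were 77.7 ± 47.3 and 31.5 ± 2.58 CPM (SD, n = 3 each), a ratio of 2.47, and the log2 fold change (GFP-positive minus GFP-negative throughout) was -1.30 ± 0.37 (SE). Areg had a log2 fold change of -0.70 ± 0.26 when GFP-negative replicate 2 was left out and of -1.24 ± 0.41 when GFP-positive replicate 3 was.

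Penk (ENSMUSG00000045573.9, chromosome 4, 4133531 to 4138819, minus strand) stood at 158, 204 and 123 CPM in GFP-negative and at 61.1, 97.7 and 47.0 CPM in GFP-positive replicates 1 to 3. Every GFP-negative library was above every GFP-positive one, and replicate 2 was the highest in each gate. The means were 162 ± 40.7 and 68.6 ± 26.1 CPM (SD, n = 3 each), a ratio of 2.35, with a log2 fold change of -1.24 ± 0.28 (SE) and of -1.02 ± 0.24 without GFP-positive replicate 3. An antisense gene, A830012C17Rik, overlaps exons of Penk on the other strand and had at most 9 counts in a library, against 328 to 896 for Penk. Penk is also a gene of enteric neurons. Of the 6 markers of neurons and glia, Elavl4, Sox10 and S100b had 0 counts in all 6 libraries, which allows at most 0.690 CPM of each in a library, and the 6 together held 0.000162% to 0.000262% of counts, with ranges that overlapped between the gates.

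Csf1 (ENSMUSG00000014599.10, chromosome 3, 107741048 to 107760469, minus strand) stood at 113, 74.1 and 103 CPM in GFP-negative and at 53.0, 32.6 and 47.6 CPM in GFP-positive replicates 1 to 3. The gates did not overlap, and replicate 2, the highest library of each gate for Penk, was the lowest of each gate for Csf1. The means were 96.7 ± 20.2 and 44.4 ± 10.5 CPM (SD, n = 3 each), a ratio of 2.18. The log2 fold change of Csf1 was -1.12 ± 0.23 (SE) and was -1.16 ± 0.26 without GFP-positive replicate 3. In bulk samples a smaller share of expressing cells and less mRNA in each cell cannot be told apart, for these and all other genes.

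The stretch before the transcript start was taken from RefSeq (GRCm38.p6) for Areg and Csf1, to set side by side the promoters of 2 mediators that were lower in the same gate. It was found for 3 of the 6 genes, Areg, Csf1 and Lif. Each sequence is the 250 bases before the start, 5′ to 3′ on the strand of the gene, chr5:91139349-91139598 for Areg and chr3:107760470-107760719 for Csf1. Capitals mark, in order, a full cyclic AMP response element (CRE) and a TATA box.
Areg: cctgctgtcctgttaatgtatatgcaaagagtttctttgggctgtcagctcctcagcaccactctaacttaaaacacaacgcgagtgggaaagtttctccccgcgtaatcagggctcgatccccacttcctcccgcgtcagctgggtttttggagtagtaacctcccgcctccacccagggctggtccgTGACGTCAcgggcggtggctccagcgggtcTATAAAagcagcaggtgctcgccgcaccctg
Csf1: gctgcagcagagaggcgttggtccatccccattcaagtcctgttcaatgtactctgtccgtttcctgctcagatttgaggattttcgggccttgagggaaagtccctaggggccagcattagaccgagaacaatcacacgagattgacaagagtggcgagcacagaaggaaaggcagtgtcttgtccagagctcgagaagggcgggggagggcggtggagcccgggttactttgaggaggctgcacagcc
The CRE of Areg, TGACGTCA, begins 61 bases before the start and its TATA box, TATAAA, 31 bases before it. Neither string occurs in the window of Csf1. On either strand, TGACGTCA was found in 1.62% of the 27025 windows of this length, one per gene, and in 3.03% of the 8350 that belong to tested genes. TATAAA was found in 13% and 6.22% of them. AP-1 (TGANTCA), STAT (TTCNNNGAA) and NFAT (TTTTCC) strings, which do not overlap the marked ones, were absent from both printed windows, and the window of Lif held 1 AP-1 string 228 bases before its start. Crem and Creb1, which encode factors that bind a CRE, stood at 192 to 287 and 69.2 to 109.2 CPM over the 6 libraries, with gates that overlapped.

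Osm (ENSMUSG00000058755.3) and Lif (ENSMUSG00000034394.14) are neighbours on chromosome 11, at 4236420 to 4241026 and 4257557 to 4272514 on the plus strand, with 16530 bases and 0 annotated genes between them. Osm stood at 17.6, 22.7 and 12.5 CPM in GFP-negative and at 20.8, 16.1 and 139.8 CPM in GFP-positive replicates 1 to 3. GFP-positive replicate 3 was 6.15 times the next highest library, and the other 5 libraries of Osm overlapped between the gates. The means were 17.6 ± 5.12 and 58.9 ± 70.1 CPM (SD, n = 3 each), and the GFP-positive mean was 18.4 CPM without replicate 3. The log2 fold change of Osm was 1.75 ± 1.01 (SE) over all libraries and 0.08 ± 0.38 without GFP-positive replicate 3. That is the library in which the 10 myeloid markers held 0.708% of counts, Lyz2 at 4217 CPM and Csf1r at 132.4 CPM among them. Macrophages and neutrophils are known sources of oncostatin M, and their part in the Osm value of that library was not tested. With that library left out, no difference of Osm between the gates was detectable at this spread.

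Lif stood at 0.194, 2.96 and 7.67 CPM in GFP-negative and at 1.39, 0.690 and 7.31 CPM in GFP-positive replicates 1 to 3, on 1 to 51 counts. Replicate 3 was the highest of each gate, and the gates overlapped over nearly the whole range. The log2 fold change of Lif was -0.17 ± 1.11 (SE). It was -1.74 ± 1.33 without GFP-positive replicate 3 and 1.02 ± 1.41 without GFP-negative replicate 3, so the data give no direction for Lif.

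Il10 (ENSMUSG00000016529.5, chromosome 1, 131019845 to 131024974, plus strand) had 13, 32 and 16 counts in GFP-negative and 0, 1 and 15 counts in GFP-positive replicates 1 to 3. In CPM these were 2.52, 7.28 and 3.51 against 0, 0.23 and 2.15. A count of 0 in GFP-positive replicate 1 allows up to 0.520 CPM, which is a limit for counting error only. The gates did not overlap, but 2.15 CPM in GFP-positive replicate 3 was close to 2.52 CPM in GFP-negative replicate 1. The means were 4.43 ± 2.51 and 0.794 ± 1.18 CPM (SD, n = 3 each), and the log2 fold change was -2.37 ± 1.14 (SE). Without GFP-positive replicate 3 it was -5.11 ± 1.49, a fitted value that rests on 1 count in that gate. Il10 passed the filter on low counts through its GFP-negative libraries, so its presence among the tested genes carries no weight.

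Regulatory T cells, a known source of both Il10 and Areg, are defined by Foxp3. In replicates 1 to 3 that gene was at 12.99, 32.97 and 2.41 CPM in the GFP-negative gate and at 0, 0 and 0.861 CPM in the GFP-positive gate. GFP-negative replicate 2 was thus the highest library for Foxp3, Il10, Areg and Penk. The other GFP-negative libraries did not keep 1 order. Replicate 1 was above replicate 3 for Foxp3, Areg and Penk, and below it for Il10 (2.52 against 3.51 CPM). The 4 markers of regulatory T cells, Foxp3, Ikzf2, Il2ra and Ctla4, summed to 0.0793% to 0.103% of counts in GFP-negative and 0.0592% to 0.0726% in GFP-positive libraries, and the defining marker Foxp3 was at 0 in GFP-positive replicates 1 and 2. Most of that sum was Ctla4, at 646 to 826 CPM in GFP-negative and 478 to 593 CPM in GFP-positive libraries. Ikzf2 and Il2ra overlapped between the gates. The part of regulatory T cells in the levels of Il10, Areg and Penk was not tested. The library rich in myeloid transcripts, GFP-positive replicate 3, was also the highest GFP-positive library for Il10 and Lif, and the part of myeloid cells in those values was not tested. For Areg and Penk that library was the lowest of all 6. Its CD4 T cell markers also held the lowest share of counts, 0.306%, and the part of this in the values of Areg and Penk was not tested.

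**Figure D2:**
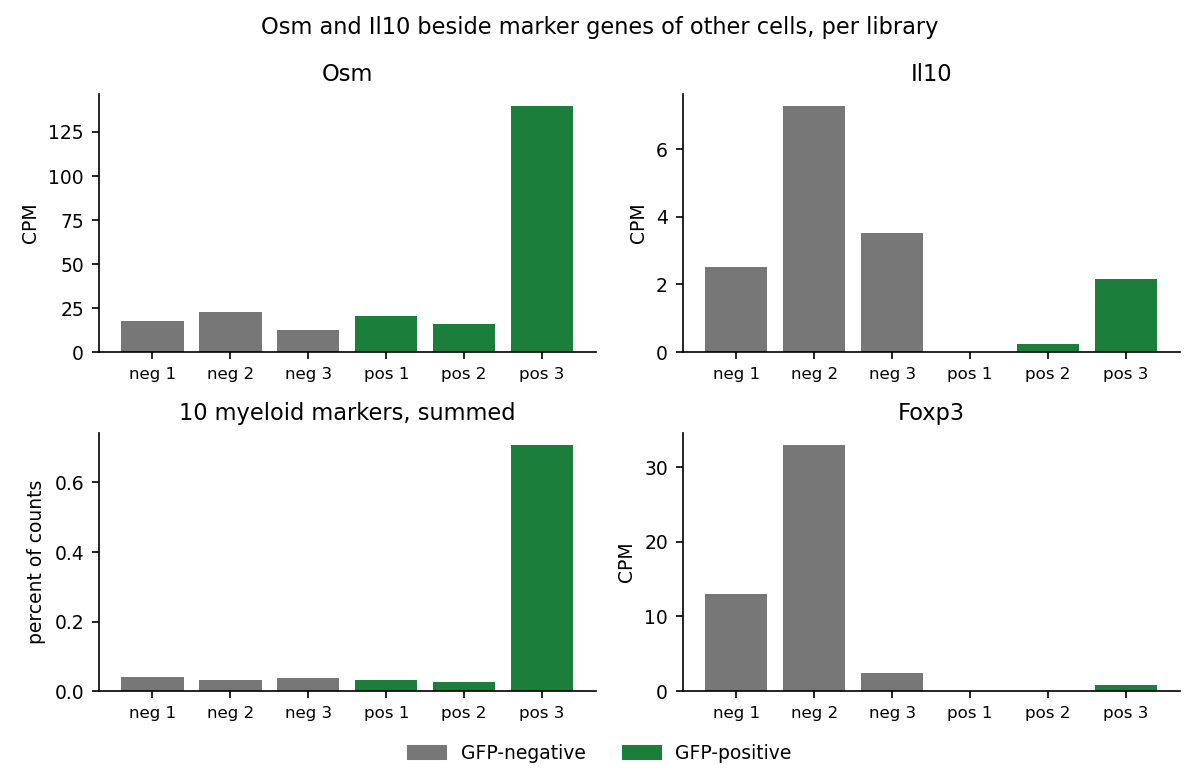
Bars give each of the 6 libraries, from GFP-negative (neg) 1 to GFP-positive (pos) 3, for Osm (CPM) over the summed percent of counts of 10 myeloid markers, and for Il10 (CPM) over Foxp3 (CPM). The tallest bar of Osm and of the myeloid sum is GFP-positive replicate 3, and the tallest of Il10 and Foxp3 is GFP-negative replicate 2.

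Levels can be set against each other between genes only per length, for which the deposited TPM values, scaled by gene length and library, were used. In the GFP-negative gate the mean TPM level was highest for Penk, at 289 ± 79.9 (SD, n = 3), a level above that of 97.4% of the genes read in any library. Areg followed at 188 ± 119 TPM, above 96.0% of them, then Csf1 at 53.2 ± 10.1 TPM, Osm at 22.7 ± 7.13 TPM, Il10 at 9.95 ± 5.89 TPM and Lif at 2.40 ± 2.48 TPM. Penk and Areg had overlapping ranges, of 215 to 373 and 99.6 to 324 TPM, but Penk was above Areg in each GFP-negative library. The ranges of Osm and Il10 met between 15.7 and 16.6 TPM, but Osm was above Il10 in each of these libraries. Areg and Csf1, Csf1 and Osm, and Il10 and Lif had ranges that did not overlap. In the GFP-positive gate Penk stood at 118 ± 47.5 TPM and Areg at 72.6 ± 11.5 TPM. Their ranges again overlapped, with Penk above Areg in each library. Csf1 stood there at 23.5 ± 6.35 TPM, and Osm at 27.4, 19.9 and 157.9 TPM in replicates 1 to 3, so that Osm was above Csf1 in GFP-positive replicates 2 and 3 and below it in replicate 1. Lif and Il10 had the lowest means, 1.90 ± 2.10 and 1.57 ± 2.30 TPM. Without GFP-positive replicate 3 they were 0.700 and 0.247 TPM, and Osm, at 23.7 TPM, had nearly the same mean there as Csf1. An enkephalin precursor was thus the most abundant transcript of the 6 by mean level in each gate.

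**Figure D3:**
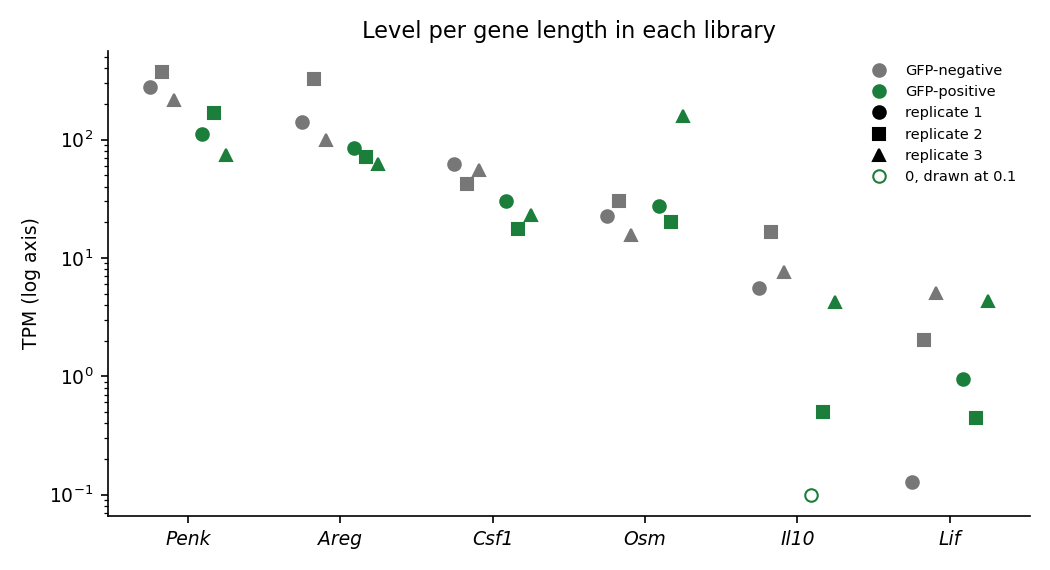
The level of each gene in TPM (log axis) is plotted for every library, GFP-negative in grey and GFP-positive in green, with the genes ordered by their GFP-negative mean. Penk lies at 73.9 to 373 TPM and Areg at 61.8 to 324 TPM, a range that Osm reaches in GFP-positive replicate 3 (157.9 TPM) and Csf1 just touches in GFP-negative replicate 1, and Il10 and Lif lie at 16.6 TPM or below, with a value of 0 drawn as an open symbol at 0.1.

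In the test across all genes (edgeR's quasi-likelihood test, adjusted p under 0.05), 0 of the 6 mediators passed, where 12 of 11074 tested genes (0.108%) did. At an unadjusted p under 0.05 there were 3 of 6, Areg, Penk and Csf1, all lower in the GFP-positive gate, where 5.97% of tested genes were. DESeq2 called the same 3, where it called 200 of 11074 tested genes, and limma-voom called 0, where it called 5 of 11074. Of the 6, 4 did not overlap between the gates, all higher in the GFP-negative one, against 8.80% of tested genes in that direction. Il10, among these 4, passed the filter on low counts through its GFP-negative libraries. The median log2 fold change was -1.18 for the 6 genes and 0.02 for all tested genes. Since this comparison was known when the genes were chosen, nothing is read from these counts.

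**Figure D4:**
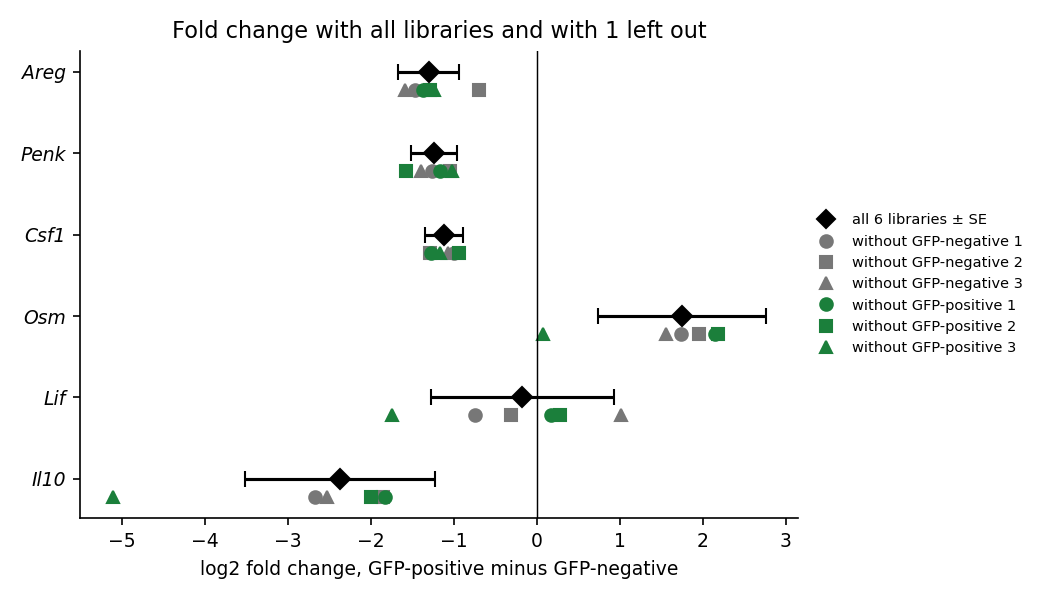
Black diamonds give the log2 fold change of each gene with its SE over all 6 libraries, and coloured symbols give the same value with 1 library left out, named by its gate and replicate. All values of Areg, Penk, Csf1 and Il10 lie under 0, Lif lies on both sides of 0, and Osm moves to 0.08 without GFP-positive replicate 3.

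The genes through which these mediators are sensed, released and controlled were counted in 7 lists with 87 genes in all. Of these, 50 had enough counts to be tested, 1 was called higher in the GFP-positive gate and 0 were called lower by edgeR (unadjusted p under 0.05: 3 higher and 5 lower; DESeq2 called 2, Socs3 and Prdm1, and limma-voom called Socs3). Their median log2 fold change was 0.05, beside 0.02 for all tested genes. Of all 11074 tested genes, 477 were higher and 661 lower at an unadjusted p under 0.05 in edgeR's test.

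Few receptors of the 6 mediators had enough counts to be tested. Of 13 receptor genes 4 were tested and 0 passed, and Erbb4, Oprd1 and Oprk1 had 0 counts in every library. The 3 most abundant tested receptors were Il10ra at 47.7 ± 14.2 CPM in GFP-negative and 58.98 ± 37.1 CPM in GFP-positive libraries, Il10rb at 48.5 ± 2.26 and 52.01 ± 12.03 CPM, and Il6st at 14.99 ± 3.35 and 18.04 ± 5.79 CPM (SD, n = 3 each). These chains of the IL-10 receptor and the shared gp130 chain had gates that overlapped. The highest value of Il10ra, 101.5 CPM, was that of GFP-positive replicate 3, without which the GFP-positive mean was 37.7 CPM, under the GFP-negative one.

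Of 9 genes that process the precursors 6 were tested and 0 passed. Adam17, the main sheddase of amphiregulin, stood at 57.6 ± 2.08 and 63.4 ± 7.83 CPM in GFP-negative and GFP-positive libraries (SD, n = 3 each), and the related sheddase gene Adam10 at 155 ± 19.1 and 136 ± 19.8 CPM. Furin, a convertase gene, stood at 842 ± 262 and 553 ± 116 CPM; the log2 difference of -0.61 ± 0.22 (SE) had an edgeR adjusted p of 0.379. The gates of Adam17 overlapped and those of Furin did not.

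Of 23 ligands related to the 6 mediators 5 were tested and 0 passed, and 10 had 0 counts in every library. Il22, a cytokine of the IL-10 family that drives epithelial repair, stood at 133 ± 54.2 and 137 ± 57.6 CPM in GFP-negative and GFP-positive libraries (SD, n = 3 each), with a log2 fold change of 0.05 ± 0.44 (SE). Clcf1, an IL-6 family cytokine, stood at 27.6 ± 6.51 and 30.01 ± 7.995 CPM, and Csf2, which encodes GM-CSF, at 11.9 ± 1.88 and 14.997 ± 5.61 CPM. All 3 had gates that overlapped. Without GFP-positive replicate 3 the GFP-positive means of Clcf1 and Csf2, 26.2 and 11.8 CPM, lay under the GFP-negative ones.

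Of 7 other repair factors 3 were tested and 0 passed. Tgfb1 stood at 74.6 ± 9.49 and 56.7 ± 13.2 CPM in GFP-negative and GFP-positive libraries (SD, n = 3 each), Pdgfb at 5.53 ± 1.26 and 3.28 ± 0.396 CPM, and Grn, a growth factor precursor also made by macrophages, at 52.8 ± 16.8 and 72.5 ± 62.1 CPM. The highest value of Grn, 143 CPM, was that of GFP-positive replicate 3, without which the GFP-positive mean was 37.0 CPM, under the GFP-negative one. Of 9 receptors for neural signals 6 were tested and 0 passed. Among them Ramp1 and Ramp3, which encode partner chains of the receptors for CGRP and adrenomedullin, stood at 71.6 ± 26.8 and 50.9 ± 3.41 CPM and at 71.8 ± 30.9 and 105.7 ± 33.5 CPM. Their gates overlapped.

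All 19 regulators were tested and 0 passed, with a median log2 fold change of -0.11. At an unadjusted p under 0.05 (edgeR) 1 was higher and 4 were lower, where 477 and 661 of 11074 tested genes were. The list was chosen with earlier results of these data known, so nothing is read from these counts. The 3 most abundant were Bhlhe40, a repressor of Il10, at 1530.4 ± 13.2 and 1344 ± 86.3 CPM in GFP-negative and GFP-positive libraries (SD, n = 3 each), Icos at 1052 ± 72.2 and 1138 ± 175 CPM, and Ets1, a factor of T cell identity, at 863 ± 32.4 and 698 ± 57.0 CPM. Bhlhe40 and Ets1 did not overlap between the gates, and Icos, a costimulatory receptor, did. Of 7 genes that respond to STAT3, the factor downstream of IL-10, LIF and oncostatin M, 1 passed. Socs3, a feedback inhibitor that binds gp130, stood at 131, 120 and 140 CPM in GFP-negative and at 320, 256 and 383 CPM in GFP-positive replicates 1 to 3, and rose by 1.29 ± 0.17 on the log2 scale (SE; adjusted p = 0.0125, edgeR). Stat3 stood at 324 ± 16.5 and 306.0 ± 53.7 CPM and Junb at 4356 ± 903 and 5069 ± 990 CPM, both with overlapping gates, and without GFP-positive replicate 3 the GFP-positive mean of Stat3 was 331 CPM, above the GFP-negative one. Socs3 was thus the single gene called among the 50 tested partner genes, in the gate where Areg, Penk, Csf1 and Il10 were lower. It was not called when any library other than GFP-positive replicate 3 was left out, and it was called without that one. The list that holds Socs3 was chosen with earlier results of these data known, so nothing is read from this call.

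**Figure D5:**
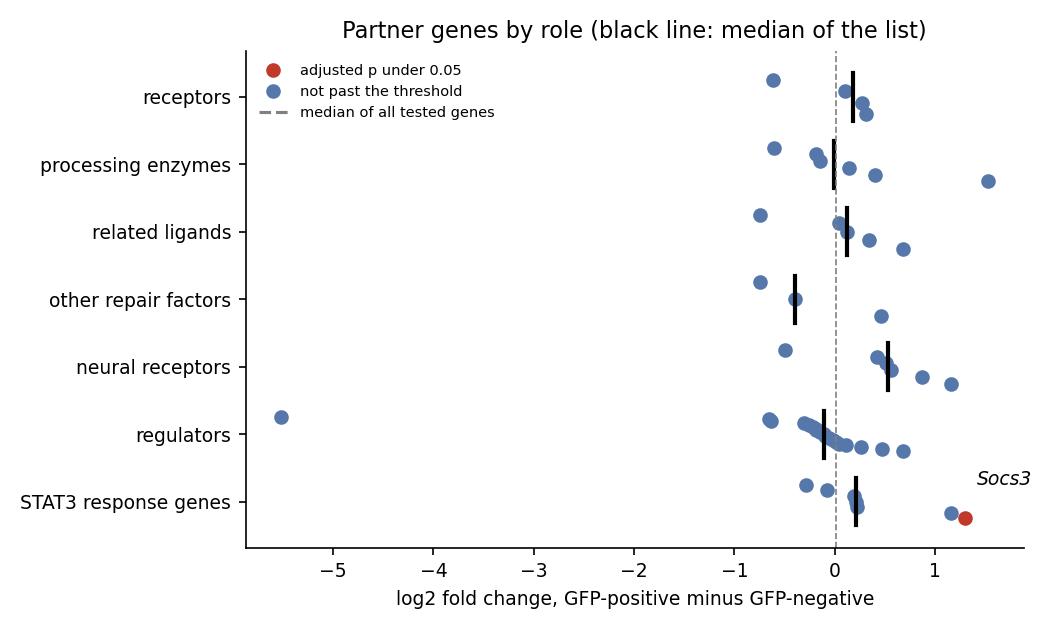
Each point is a tested partner gene, placed by its log2 fold change (GFP-positive minus GFP-negative) in the row of its list, with a black line at the list's median and a dashed line at the median of all tested genes. Socs3, in red, is the single gene past the adjusted threshold, and the point at -5.52 among the regulators is Foxp3.

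The genes whose profile over the 6 libraries was most like that of each mediator were found by the root-mean-square (RMS) difference of log2 CPM, each gene centred on its own mean. The nearest to Penk were Tnfrsf9, the costimulatory receptor 4-1BB of activated T cells, at an RMS difference of 0.18, Gzmb, which encodes granzyme B, at 0.24, and the septin gene Sept11 at 0.25. The profile of Penk itself had an RMS of 0.73 about its mean. Tnfrsf9 stood at 88.0, 112 and 48.5 CPM in GFP-negative and 34.5, 45.3 and 23.5 CPM in GFP-positive replicates 1 to 3, so that replicate 2 was the highest and replicate 3 the lowest of each gate, as for Penk.

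Nearest to Csf1 (own RMS 0.63) were Sirt1, a deacetylase gene, at 0.14, Kctd2 at 0.17 and Ier5l at 0.19. Nearest to Areg (own RMS 0.75) were Wdhd1, a DNA replication gene, at 0.25, Wsb2 at 0.27 and Ppp1ccb at 0.28. Ppp1ccb, at 1.73 to 5.46 CPM, is a near copy of Ppp1cc, at 53.7 to 153 CPM, so its reads may be shared and its place is uncertain. Among the mediators themselves the closest pair was Areg and Penk, at 0.42, and the farthest was Osm and Il10, at 1.79.

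Nearest to Osm (own RMS 1.14) were Ms4a6c at 0.26, the lysosomal protease gene Ctsz at 0.31 and Csf2ra, a chain of the GM-CSF receptor of myeloid cells, at 0.32. Like Osm, all 3 were highest in GFP-positive replicate 3, Ms4a6c at 55.9 CPM against 4.17 to 9.89 CPM elsewhere. Nearest to Il10 (own RMS 1.51) were Gzma, which encodes granzyme A, at 0.33, the transcription factor gene Cebpb at 0.47 and Ccdc71l at 0.53. Nearest to Lif (own RMS 1.41) were Tmem67 at 0.48, Crat at 0.49 and Arel1 at 0.58. These are the smallest differences among 10038 tested genes, gene models left out, over 6 libraries that share 2 gates, and they say nothing of chance.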

How the data were processed

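Complementary DNA made from oligo-dT and random primers was amplified and then cut by a transposase kit, per the labels' protocols; this marks neither strand nor molecules. The authors deposited raw counts per gene and a TPM table. The submitters' processing notes list the mm10 build, STAR 2.7.10b, fastp 0.23.3, deepTools 3.5.1 and SAMtools 1.17; the counter is not given in the sources used here, nor is the annotation. Coordinates are those of GENCODE M21 (GRCm38).

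The counts were fitted with edgeR 4.0.16 (R 4.3.3): quasi-likelihood test, robust dispersions, TMM factors, filter by group with minimum count 10, group as the only term, Benjamini-Hochberg over 11074 genes. CPM are relative to TMM-scaled totals of tested genes, and SE came from the log2 fold change and F. Alternatives tried were RLE factors, library size alone, 2 other filters, DESeq2 1.42.0, limma 3.58.1 (voom, and log2 TPM with pseudocounts 1 and 0.1), a replicate block, a threshold of 0.01 and leaving out each library. In counts simulated for this comparison (10741 genes), edgeR found 72 of 95 genes with a 4-fold change and 19 of 98 with a 2-fold change, and 7 of its 98 calls were unchanged genes. In the same simulated counts 25 of the 132 calls of DESeq2 were unchanged genes.

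The mediators and all lists were chosen with earlier results of these data known. Named partner genes were the 3 most abundant tested ones of each list plus those called (a gene this rule takes is not reported here); the 3 nearest profiles per mediator left out gene-model names and used a prior count of 2. No replicate pair was a duplicate (smallest chi-square per degree of freedom 10.7). Floors cover counting error only, while SD and SE also take in the spread between libraries.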

Additional observations from a re-analysis of the deposited data

How the results depend on the processing

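Areg, Penk, Csf1, Il10 and Osm kept the sign of their log2 fold change in the 15 alternatives that could move it, and Lif in 10 of 15; a threshold of 0.01 and leaving log2(TPM + 1) unfiltered cannot change a fold change. Lif turned to 0.48 with limma-voom and 0.0054 with log2(TPM + 0.1), and ran from -1.74 to 1.02 when each library was left out. Leaving out each library gave -1.59 to -0.70 for Areg, -1.58 to -1.02 for Penk, -1.29 to -0.94 for Csf1, -5.11 to -1.82 for Il10 and 0.08 to 2.19 for Osm. The count of mediators called, 0 in the reported fit, was 3 with no filter (Areg, Penk, Csf1), 3 with DESeq2 (the same 3), 2 with the replicate block (Penk, Csf1) and 0 without any 1 library, where 3 or 4 had an unadjusted p under 0.05. The count of partner genes called, 1 in the reported fit, was 5 with no filter, 2 with DESeq2, 0 with each of the 3 fits of log2 TPM and at a threshold of 0.01, and 0 to 1 when each library was left out. Over all genes the count of 12 became 19 with library size alone, 373 with no filter, 200 with DESeq2, 5 with limma-voom, 81 with the replicate block, 1 with log2(TPM + 1), 0 with log2(TPM + 0.1), 0 with log2(TPM + 1) unfiltered and 0 at a threshold of 0.01. Leaving out each library gave 0 to 42 calls: 1, 3 and 0 without GFP-negative replicates 1, 2 and 3, and 0, 0 and 42 without GFP-positive replicates 1, 2 and 3. The cause of these changes was not tested. Same-numbered libraries of the 2 gates had correlations of their deviations across genes of 0.104, 0.0971 and 0.104, and every library correlated best with its own number, but no label says that a number marks a shared mouse or day, so the reported fit has no block. Il10 and Lif rest on 0 to 51 counts per library, which limits their precision.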

Other observations

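Some genes of the partner lists, picked here after their values were seen, had an unadjusted p under 0.05 without passing the adjusted threshold in edgeR's test. Pcsk1, a prohormone convertase that can cut proenkephalin, stood at 3.49, 7.96 and 4.17 CPM in GFP-negative and at 8.31, 30.8 and 6.31 CPM in GFP-positive replicates 1 to 3, in the opposite order of the gate means to Penk, with gates that overlapped (edgeR adjusted p = 0.431). Prdm1, which encodes the Il10 regulator Blimp-1, stood at 157, 160 and 169 CPM against 82.4, 122 and 105 CPM (edgeR adjusted p = 0.158). Irf4, a factor of effector and regulatory T cells, stood at 83.7, 65.0 and 88.6 CPM against 38.3, 56.3 and 58.7 CPM (edgeR adjusted p = 0.334). Fosl2, an AP-1 family gene, stood at 212, 207 and 107 CPM against 318, 293 and 234 CPM (edgeR adjusted p = 0.374), the other way round. Prdm1, Irf4 and Fosl2 did not overlap between the gates in CPM, as was so for 1777 of 11074 tested genes. In TPM Fosl2 did overlap, at 64.1 in GFP-negative replicate 2 and 62.1 in GFP-positive replicate 3.

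Several receptors and growth factors were read mainly in GFP-positive replicate 3, also picked after their values were seen. Csf1r, the receptor of the Csf1 product, reached 132.4 CPM there, against 0.581 to 4.32 CPM elsewhere. Osmr, the receptor chain for oncostatin M, reached 5.74 CPM there, with 0 counts in the other 5 libraries, and Egfr, the receptor of amphiregulin, reached 1.72 CPM there, with 0 counts in the others. Il6 stood at 14.9 CPM there against at most 1.36 CPM, Vegfa at 11.9 CPM against at most 0.682 CPM and Igf1 at 11.3 CPM against at most 0.581 CPM. This is the library in which myeloid, dendritic cell, stromal and epithelial markers stood apart, and the part of such cells in these values was not tested.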
